A study of Mus musculus with 39 samples.

Results

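The comparison was chronic intermittent hypoxia (CIH) against normoxia (NX) in microglia of 10-month-old 5XFAD females. It holds 10 of the 39 samples of the series, 5 labelled 5XFAD NX and 5 labelled 5XFAD CIH, chosen by their labels, and genes were kept where the counts scaled to the library total (CPM) exceeded 1 in at least 3 of the 10 libraries. 5XFAD mice carry mutant human transgenes behind a promoter active in neurons and form amyloid plaques, and the colony came from C57BL/6J females crossed with 5XFAD males. From 4 months of age the CIH mice breathed air that alternated between 6.5% and 21% oxygen at 90-s intervals for 8 h per day during their sleep phase, per the labels, and the NX mice stayed at 21% oxygen. The published methods state a slightly lower oxygen level and a longer daily period. Libraries of wild-type (WT) females of the same age and exposures, 4 NX and 5 CIH, served for comparison and for a shared scaling. CD11b+ cells were taken from the cerebrum of perfused mice by papain digestion and magnetic beads, a selection that also takes other myeloid cells, and all cells of a sample were sequenced together.

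Microglia are the resident macrophages of the brain. Around plaques they take on the disease-associated (DAM) state, with more Apoe, Cst7 and Itgax and less of homeostatic genes such as P2ry12. Low oxygen stabilises the HIF transcription factors, which bind hypoxia response elements and raise genes of glycolysis, glucose uptake and angiogenesis. Swings in oxygen, as in sleep apnea, are also known to affect oxidative stress, inflammation and sleep, which are in turn tied to the circadian clock and to the temperature-sensitive RNA-binding proteins.

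The library F 5XFAD NX 4 stood apart from the other 9, so list counts and medians are given with and without it. It held the highest or the lowest value of the 10 libraries in 61.8% of 14578 genes, where each other library did so in 8.64% to 24.2%. The summed level of the 33 DAM genes was 17602 CPM in it, against 78094 to 123760 CPM in the other 4 NX libraries, 85043 to 109886 CPM in CIH and 21908 to 34567 CPM in WT NX. Over all genes its root mean square distance to the mean of the other 5XFAD NX libraries was 1.12 on the log2 scale, where the other 9 libraries lay at 0.39 to 0.62. Its distance to the mean of WT NX (0.79) was close to that of the other 5XFAD libraries (0.80 to 1.00). The other 9 libraries were all above the WT NX range for the DAM list, and the homeostatic microglia markers summed to 48599 CPM or more in all 10. Total counts were 14731683 to 21179006 per NX library and 15448031 to 20053296 per CIH library. CPM values below were scaled together over the 19 female libraries. In bulk libraries, fewer cells of a type and less RNA per cell cannot be told apart.

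No gene passed the thresholds of an FDR < 0.05 with a log2 fold change (log2FC) above 1 or below −1 in edgeR's quasi-likelihood test. With all 10 libraries, 0 of 14578 genes were called (0%), 248 were higher (1.70%) and 222 lower (1.52%) in CIH at an unadjusted p below 0.05, and the smallest adjusted p was 0.998. Without F 5XFAD NX 4, 0 of 14128 genes were called (0%), 613 were higher (4.34%) and 443 lower (3.14%) at that p, and the smallest adjusted p from edgeR was 0.623. Scaled by library size alone in place of the TMM factors (trimmed means of log ratios), the same 9 libraries gave 1042 higher (7.38%) and 90 lower (0.637%) at that p, with 69.9% of all genes positive, and moved the median log2FC of all genes from 0.00 to 0.07, and list counts under this scaling are given below where they differ most. Of the 613 genes, 123 had passed the filter with no NX library above 1 CPM, so that they had to be higher in CIH. On these 9 libraries edgeR's likelihood ratio test called 7 genes higher and 1 lower (0.0566%), and DESeq2 called 5 higher (0.0354%). The biological coefficient of variation was 0.24 with F 5XFAD NX 4 and 0.15 without it, and the median SE of a log2FC was 0.15 and 0.11. CIH lay wholly above NX in 40 genes (0.274%) and wholly below in 46 (0.316%) over 10 libraries, and in 133 (0.941%) and 269 (1.90%) over 9. Leaving out this 1 library turned the sign of the log2FC in 26.9% of the 14128 genes. A positive log2FC means higher in CIH throughout, and log2FC, SE and p values below are from the quasi-likelihood fit without F 5XFAD NX 4 unless all 10 libraries are named. As no gene passed that test, the gene group results that follow are values and counts.

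**Figure D1:**
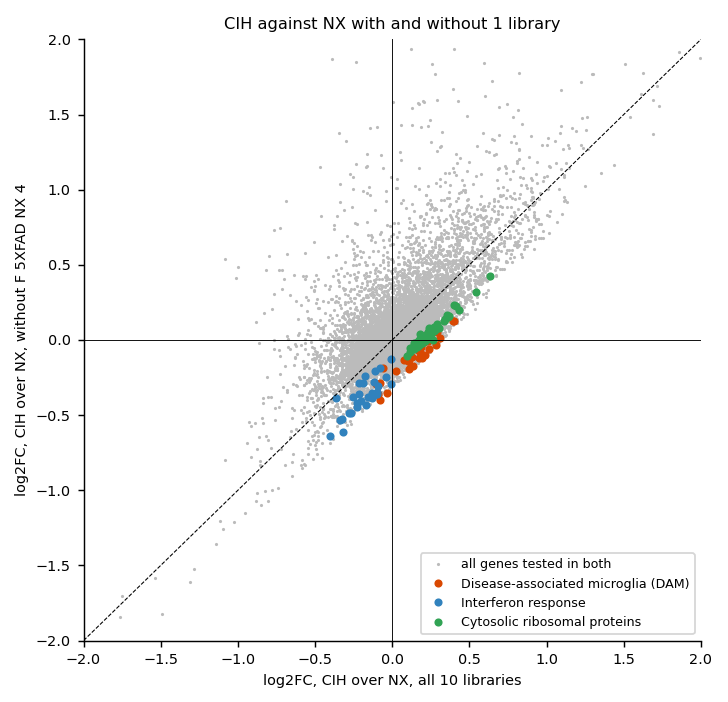
Each point is a gene, with its log2FC of CIH over NX from all 10 libraries on the x axis and from the 9 libraries without F 5XFAD NX 4 on the y axis (14128 genes, 17 outside the axes). The 33 DAM genes (orange) and the 78 ribosomal protein genes (green) lie below the dashed line of equal values, 27 of the 33 and all 78 above 0 on the x axis, while all 30 interferon genes (blue) lie below 0 on the y axis.

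Cirbp, which encodes the cold-inducible RNA-binding protein, had the smallest p of all genes with a mean of at least 5 CPM. Its level in NX was 50.004, 52.9, 55.9, 75.3 and 69.5 CPM in replicates 1 to 5, and in CIH 102, 72.0, 85.8, 88.4 and 89.7 CPM. Every CIH library was above the 4 NX libraries other than F 5XFAD NX 4, which overlapped CIH. The log2FC was 0.66 (SE 0.12, a fold of 1.58, unadjusted p = 0.000158), the quasi-likelihood test gave an adjusted p of 0.623, and the likelihood ratio test of edgeR (adjusted p = 0.00224) and DESeq2 (adjusted p = 0.00451) passed the FDR limit but not the fold limit. With all 10 libraries the log2FC was 0.52, and with any further library left out of the 9 it stayed between 0.59 and 0.77. Rbm3, the other cold-inducible RNA-binding protein, was at 94.8, 85.9, 103, 91.2 and 99.2 CPM in NX and at 145, 114, 103, 123 and 133 CPM in CIH. Its groups did not overlap in all 10 libraries, by a narrow margin between the third replicates. The log2FC was 0.41 (SE 0.10, adjusted p = 0.623 from edgeR), and 0.39 over all 10.

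Heat shock proteins lay on the other side. Of 18 genes of the heat shock and unfolded protein response, 3 were higher and 15 lower in CIH, with a median log2FC of −0.17, and 2 of the 18 were lower at an unadjusted p below 0.05, where 3.14% of all genes were. That count was 1 with library size scaling, where 0.637% of all genes were, and 1 with all 10 libraries, where 1.52% of all genes were. The 2 were Hspa8, the constitutive HSC70 chaperone, and Hsph1, the HSP110 exchange factor that works with it. Hspa8 was at 1722, 1254, 1173, 649 and 1066 CPM in NX and 745, 1039, 900.3, 924 and 967 CPM in CIH. Apart from F 5XFAD NX 4, which was the lowest of all, each NX library was above each CIH library, and the log2FC was −0.47 (SE 0.13, adjusted p = 0.623 from edgeR). Hsph1 was at 53.0, 41.4, 65.7, 40.4 and 37.9 CPM in NX and 26.8, 44.5, 39.7, 30.8 and 29.2 CPM in CIH. Its groups overlapped, and its log2FC was −0.50 (SE 0.18). With all 10 libraries the log2FC was −0.34 for Hspa8 and −0.48 for Hsph1, 5 of the 18 were higher, and the median of the list was −0.06. Leaving out F 5XFAD NX 1 moved the list median to −0.08 over the 9 libraries and to −0.01 over the 10.

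Genes of the circadian clock had mostly higher values in CIH, and Arntl a lower one. ARNTL with CLOCK drives the Per, Cry, Nr1d1 and Dbp genes, and NR1D1 represses Arntl. Of 16 clock genes tested, 11 were higher in CIH with a median log2FC of 0.24, and 3 of the 16 were higher at an unadjusted p below 0.05, where 4.34% of all genes were. Including F 5XFAD NX 4, 11 of 16 were again higher, but the median was 0.12, and 1 gene was higher and 1 lower at that p, where 1.70% and 1.52% of all genes were. The median of the 9 libraries was 0.12 with F 5XFAD NX 2 also left out, 0.12 with F 5XFAD CIH 3 also left out, and otherwise 0.16 to 0.36. Without F 5XFAD CIH 3 alone it was −0.0012. Dbp, an output transcription factor, was at 8.91, 7.09, 18.0, 21.0 and 10.1 CPM in NX and 21.7, 18.1, 27.6, 13.5 and 11.3 CPM in CIH (log2FC 0.78, SE 0.30). Nr1d1 was at 6.40, 5.47, 10.5, 13.7 and 8.82 CPM in NX and 12.5, 14.6, 20.6, 8.60 and 7.06 CPM in CIH (log2FC 0.74, SE 0.30). For both, the first 3 CIH libraries exceeded the 4 NX libraries other than F 5XFAD NX 4, and the last 2 fell within the range of these 4. F 5XFAD NX 4 exceeded CIH 2 as well for Dbp and CIH 1 as well for Nr1d1. With F 5XFAD NX 4 included the log2FC was 0.48 for Dbp, 0.48 for Nr1d1 and 0.35 for Cry2. Cry2, a repressor of the loop, was at 6.62 to 8.56 CPM in the 4 NX libraries and 8.87 to 12.3 CPM in CIH, with no overlap (log2FC 0.47, SE 0.12, adjusted p = 0.623 from edgeR), but F 5XFAD NX 4 was at 9.99 CPM. Arntl was lower in CIH, at 13.3, 14.6, 14.1, 17.2 and 13.1 CPM in NX against 11.7, 10.6, 11.5, 14.0 and 10.2 CPM, with a log2FC of −0.21 (SE 0.12), and of −0.32 over all 10 libraries. Per1 had a log2FC of 0.09 (SE 0.12). The hour of collection is not given in the sources used here, and its part in these values was not tested.

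**Figure D2:**
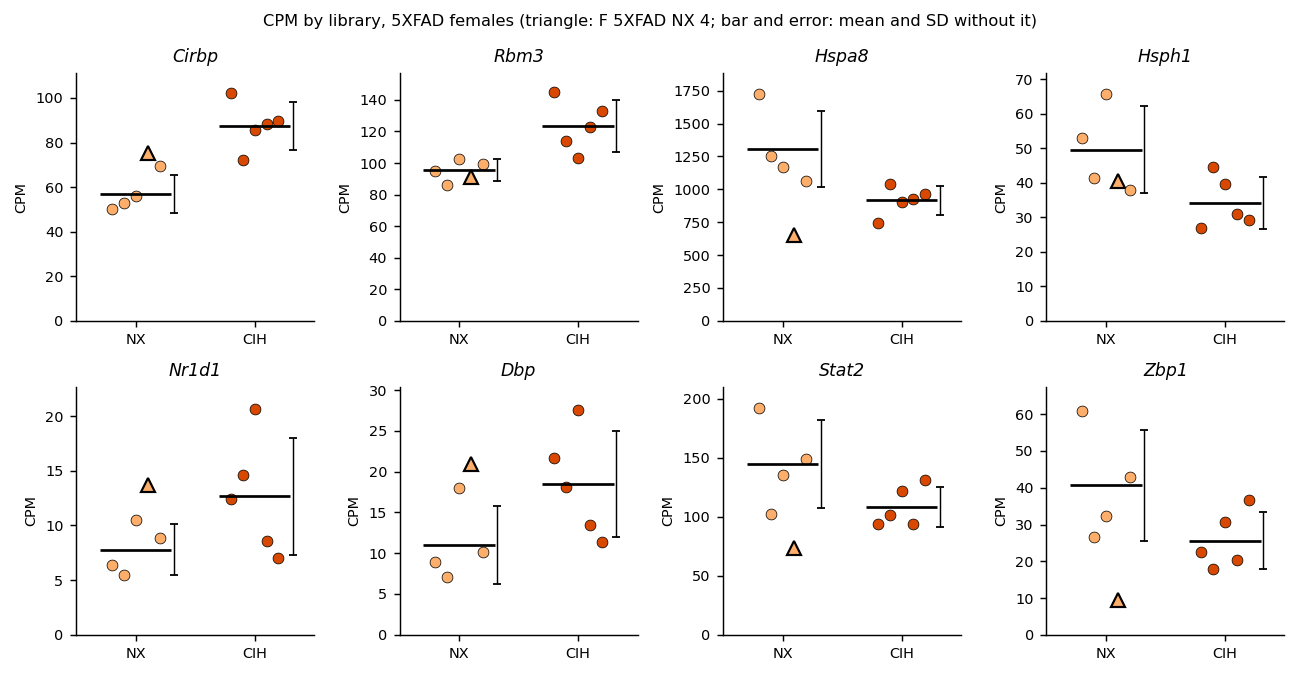
CPM on the y axis in each 5XFAD female library, NX on the left and CIH on the right of each panel, for 8 genes. Bars and error bars are the mean and SD without F 5XFAD NX 4 (triangle), which was the lowest NX library for Hspa8, Stat2 and Zbp1 and the highest for Cirbp, Nr1d1 and Dbp.

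Interferon-response genes had lower values in CIH once F 5XFAD NX 4 was left out. All 30 had a negative log2FC without F 5XFAD NX 4, with a median of −0.36 and values from −0.64 to −0.06, where 49.5% of all genes were negative. Of the 30, 8 were lower at an unadjusted p below 0.05 (3.14% of all genes), and none passed the adjusted test. Among them were Stat2 and Irf9, whose products are parts of the ISGF3 complex that carries the interferon signal to DNA, the nucleic acid sensors Zbp1, Ddx58 and Oas1a, and Trim30a and Parp14. Over all 10 libraries 29 of the 30 were negative (49.7% of all genes) with a median of −0.17, and the count at that p was 0. Library size scaling of the 9 libraries gave 29 of 30 negative (30.1% of all genes), with 3 lower at that p (0.637% of all genes). Zbp1 was at 61.0, 26.7, 32.3, 9.45 and 42.9 CPM in NX and 22.5, 17.9, 30.7, 20.3 and 36.6 CPM in CIH. Replicates 1 and 5 of NX were high, replicates 2 and 3 lay within the range of CIH, and F 5XFAD NX 4 was below every CIH library. The log2FC was −0.64 (SE 0.24) for Zbp1 and −0.21 (SE 0.06) for Irf9. Averaged over the list, log2 CPM was 6.43, 5.56, 5.74, 4.48 and 6.14 in NX and 5.30, 5.38, 5.96, 5.43 and 5.96 in CIH. Leaving out F 5XFAD NX 1 as well moved the median to −0.18, and leaving out any of the other libraries kept it between −0.48 and −0.29. With F 5XFAD NX 4 kept, the median was 0.04 without F 5XFAD NX 1 and −0.28 to −0.11 without any other single library, so its sign rested on F 5XFAD NX 1 in that case.

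The interferon-stimulated response element to which ISGF3 binds was sought in RefSeq promoter windows of GRCm38.p6, from 250 bases before to 50 after a gene's start, as GAAA repeated 2 bases further on, on either strand. It was found in 15 of the 21 interferon genes with a window (71.4%) and in 414 of 10730 tested genes (3.86%). Stretches of 50 bases around it are shown for Stat2, Oas1a, Ddx58 and Isg15 of the group. B2m, which is not of this group but of the antigen presentation genes below, is shown with them. They are written along the strand of the gene with the match and the 2 bases inside it in capitals. The capitals read TTTC where the match is on the opposite strand. Stat2 lies on the plus strand at chr10:128270256-128270305, Oas1a on the minus strand at chr5:120907510-120907559, Ddx58 on the minus strand at chr4:40239794-40239843, Isg15 on the minus strand at chr4:156200861-156200910 and B2m on the plus strand at chr2:122147528-122147577.
Stat2: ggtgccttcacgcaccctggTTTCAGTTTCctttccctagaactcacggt
Oas1a: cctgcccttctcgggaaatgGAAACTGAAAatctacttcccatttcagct
Ddx58: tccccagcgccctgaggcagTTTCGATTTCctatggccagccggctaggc
Isg15: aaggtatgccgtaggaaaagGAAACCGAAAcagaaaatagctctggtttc
B2m: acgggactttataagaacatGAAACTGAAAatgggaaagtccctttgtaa

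Of these, Stat2 was at 192, 102, 136, 73.5 and 149 CPM in NX and 94.2, 101, 122, 94.3 and 131 CPM in CIH (log2FC −0.38, SE 0.15). Oas1a had a log2FC of −0.36 (SE 0.16), Ddx58 of −0.24 (SE 0.10) and the ubiquitin-like modifier Isg15 of −0.44 (SE 0.22). The groups overlapped in all 4.

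Antigen presentation genes had the same sign on the 9 libraries. All 13 genes of MHC class I and the immunoproteasome were negative (median −0.24), with B2m, the light chain of class I, at a log2FC of −0.29 (SE 0.12) and 1 of the 13 lower at an unadjusted p below 0.05, where 3.14% of all genes were. All 7 MHC class II genes were negative (median −0.41), led by their transactivator Ciita at 21.0, 4.93, 16.8, 9.03 and 23.2 CPM in NX and 8.66, 8.18, 8.87, 7.61 and 14.3 CPM in CIH (log2FC −0.76, SE 0.34). The class II chaperone Cd74 spread from 724 to 2680 CPM in the 4 NX libraries and from 754 to 2560 CPM in CIH. In both groups the highest Cd74 value was in replicate 5. Without F 5XFAD NX 5 the class II median was −0.09, and without F 5XFAD CIH 5 it was −0.81, each with F 5XFAD NX 4 also left out. The medians with all 10 libraries were −0.04 for class I, with 2 of 13 genes higher in CIH and 0 at that p, and −0.15 for class II, with 0 of 7 higher. Over these 10 libraries the class I median turned positive without F 5XFAD NX 1 (0.025) or F 5XFAD NX 5 (0.06), and the class II median without F 5XFAD NX 5 (0.17) or F 5XFAD CIH 3 (0.00099).

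The sign of the DAM list turned with F 5XFAD NX 4. Over all 10 libraries 27 of 33 were higher in CIH (median log2FC 0.17, 50.3% of all genes positive), and without it 5 of 33 were higher (median −0.11, 50.5% of all genes positive), or 13 of 33 with library size scaling (median −0.04, 69.9% of all genes positive). Apoe, the lipid carrier that leads the DAM state, was at 27662, 27002, 14084, 698 and 28274 CPM in NX and 25182, 16630, 18384, 19259 and 25181 CPM in CIH. Cst7, a cathepsin inhibitor, was at 2204, 2056, 1168, 14.9 and 2488 CPM in NX and 2015, 1354, 1829, 1864 and 1892 CPM in CIH. The 4 NX libraries enclosed the CIH range in both genes, with F 5XFAD NX 3 the lowest of the 4. The log2FC was −0.17 (SE 0.21) for Apoe, −0.10 (SE 0.19) for Cst7, −0.20 (SE 0.21) for the integrin Itgax and −0.04 (SE 0.12) for the lipid receptor Trem2, and the 95% interval for Trem2 ran from −0.30 to 0.23. The DAM members with an unadjusted p below 0.05 were 3, all lower in CIH, where 3.14% of all genes were, and with all 10 libraries there were none. They were B2m and Lgals3bp, both of which interferon is known to induce, and the activation marker Cd83. Lgals3bp was at 2038, 1712, 1524, 231 and 2054 CPM in NX and 1252, 1289, 1469, 1183 and 1765 CPM in CIH (log2FC −0.36, SE 0.12), and its groups overlapped. The DAM median was −0.24 with F 5XFAD NX 3 also left out and between −0.17 and −0.04 with any other library left out.

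Homeostatic genes were close to level. Of 23, 5 were higher without F 5XFAD NX 4 (median −0.05) and 4 over all 10 libraries (median −0.08), and no member had an unadjusted p below 0.05. Library size scaling of the 9 libraries gave 15 of 23 higher (median 0.01), where 69.9% of all genes were. P2ry12, the purinergic receptor of resting microglia, was at 1678, 1776, 2062, 2444 and 1481 CPM in NX and 1501, 1951, 1618, 1561 and 1622 CPM in CIH. The groups overlapped with F 5XFAD NX 4 the highest, and the log2FC was −0.05 (95% interval −0.29 to 0.19). Tmem119 was at −0.01 (95% interval −0.32 to 0.30) and Cx3cr1 at 0.01 (95% interval −0.16 to 0.19). Lysosomal genes moved with the DAM list, with 19 of 24 higher over 10 libraries (median 0.05) and 2 of 24 over 9 (median −0.08), or 9 of 24 with library size scaling. Complement genes were 7 of 11 higher over 10 libraries (median 0.03) and 1 of 11 over 9 (median −0.10). Among genes of cholesterol synthesis and efflux, Sqle, a rate-limiting enzyme of sterol synthesis, was at 12.97, 12.97, 11.5, 5.45 and 14.4 CPM in NX and 15.4, 14.3, 15.3, 17.1 and 18.2 CPM in CIH. CIH exceeded NX except that CIH 2 fell just below NX 5, and the log2FC was 0.35 (SE 0.10, adjusted p = 0.623 from edgeR) without F 5XFAD NX 4 and 0.51 with it. The list had 14 of 21 members higher (median 0.09), with 1 higher and 1 lower at an unadjusted p below 0.05, where 4.34% and 3.14% of all genes were. Including F 5XFAD NX 4, 18 of 21 were higher (median 0.25), with 2 higher and 0 lower at that p, and library size scaling of the 9 libraries gave 6 higher and 0 lower (7.38% and 0.637% of all genes). With F 5XFAD NX 3 also left out of the 9, the list median was −0.01. Over 10 libraries 1.70% and 1.52% of all genes were higher and lower at that p.

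**Figure D3:**
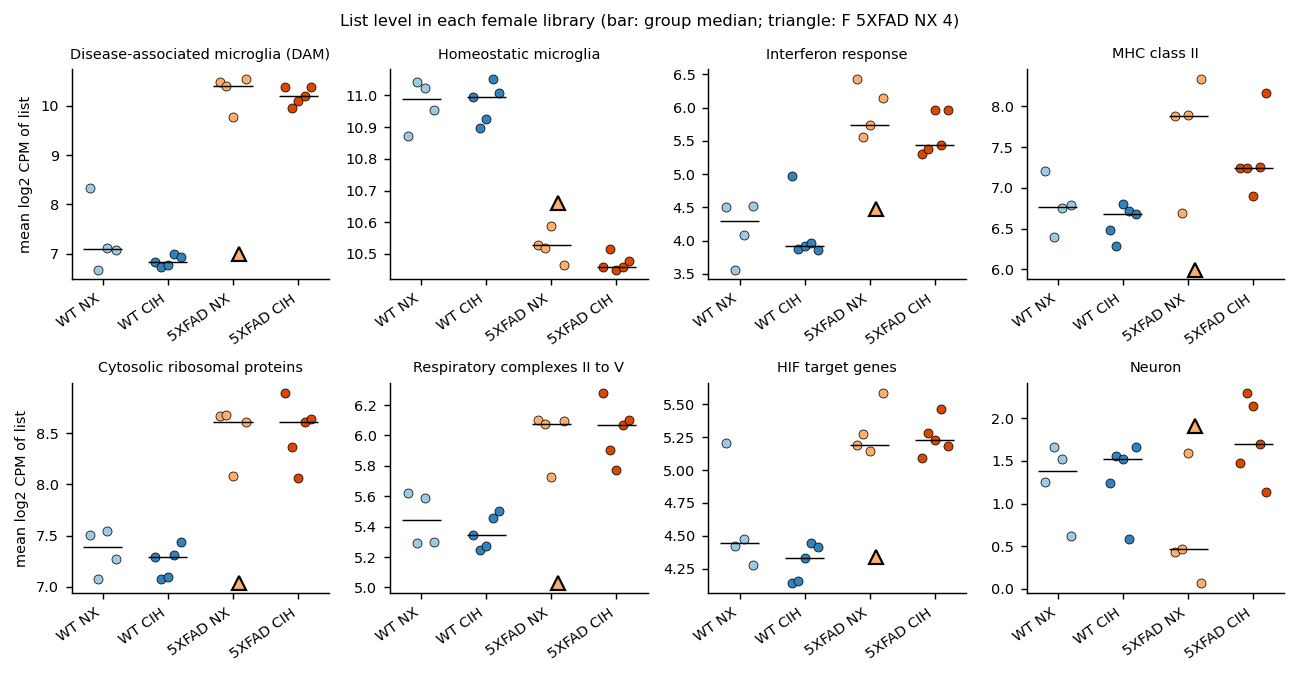
Mean log2 CPM of 8 gene lists on the y axis in each female library of the 4 groups, with a bar at the group median. F 5XFAD NX 4 (triangle) lay at 6.99 for the DAM list, where the other 4 NX libraries lay between 9.77 and 10.54 and the CIH libraries between 9.96 and 10.38.

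Among targets of HIF, none was higher in CIH at an unadjusted p below 0.05. Without F 5XFAD NX 4, 6 of 23 HIF targets were higher in CIH (median −0.09) and 3 of 23 were lower at that p, where 3.14% of all genes were. Library size scaling of the 9 libraries gave 9 of 23 higher (median −0.03) and 0 lower at that p (0.637% of all genes). With all 10 libraries 17 of 24 were higher (median 0.06) and 1 was lower at that p, where 1.52% of all genes were. The median was −0.16 to −0.01 with a further library left out of the 9, and without F 5XFAD CIH 4 alone it was −0.01. Vegfa, the angiogenic growth factor, was at 29.4, 29.9, 24.0, 5.23 and 46.1 CPM in NX and 31.3, 28.6, 29.8, 47.9 and 23.7 CPM in CIH. Its groups overlapped, and its log2FC was 0.04 (95% interval −0.44 to 0.52). The mitophagy receptor Bnip3 was at 0.00 (95% interval −0.43 to 0.44), the glucose transporter Slc2a1 at −0.17 (95% interval −0.44 to 0.11), and Hif1a itself at −0.21 (95% interval −0.48 to 0.05). Over all 10 libraries these values were 0.30 for Vegfa, 0.20 for Bnip3, 0.05 for Slc2a1 and 0.06 for Hif1a. The 3 targets that were lower were Kdm3a, a histone demethylase, P4ha1, a collagen prolyl hydroxylase, and Ero1a, an oxidase of the endoplasmic reticulum. P4ha1 was at 419.6, 364, 385, 229 and 417 CPM in NX and 273, 359.6, 339.6, 352 and 346 CPM in CIH. Apart from F 5XFAD NX 4 the groups did not overlap, and the log2FC was −0.21 (SE 0.09). The core hypoxia response element ACGTG was in the promoter window of 18 of 21 of these genes (85.7%) and of 28.9% of all tested genes, and it also forms part of the clock's E-box CACGTG, which was in 5 of 14 clock genes (35.7%) and 11.6% of all.

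Glycolysis, respiration and translation showed the same dependence on 1 library. Of 22 glycolytic genes 17 were higher over all 10 libraries (median 0.07) and 5 without F 5XFAD NX 4 (median −0.08). All 38 tested subunits of complex I were higher over 10 libraries (median 0.19) and 31 over 9 (median 0.06), with 39 and 27 of 40 for complexes II to V (medians 0.18 and 0.04). All 78 cytosolic ribosomal protein genes were higher over 10 libraries (median 0.20) and 44 over 9 (median 0.01). With library size scaling the 9 libraries gave 11 of 22 glycolytic genes, 37 of 38 subunits of complex I, 35 of 40 of complexes II to V and 76 of 78 ribosomal genes higher (ribosomal median 0.07), where 69.9% of all genes were. No member of these 4 lists had an unadjusted p below 0.05 in either fit with TMM scaling. In the 9 libraries the sign of the ribosomal and respiratory medians turned with single further libraries, and the ribosomal median ranged from −0.11 to 0.10.

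**Figure D4:**
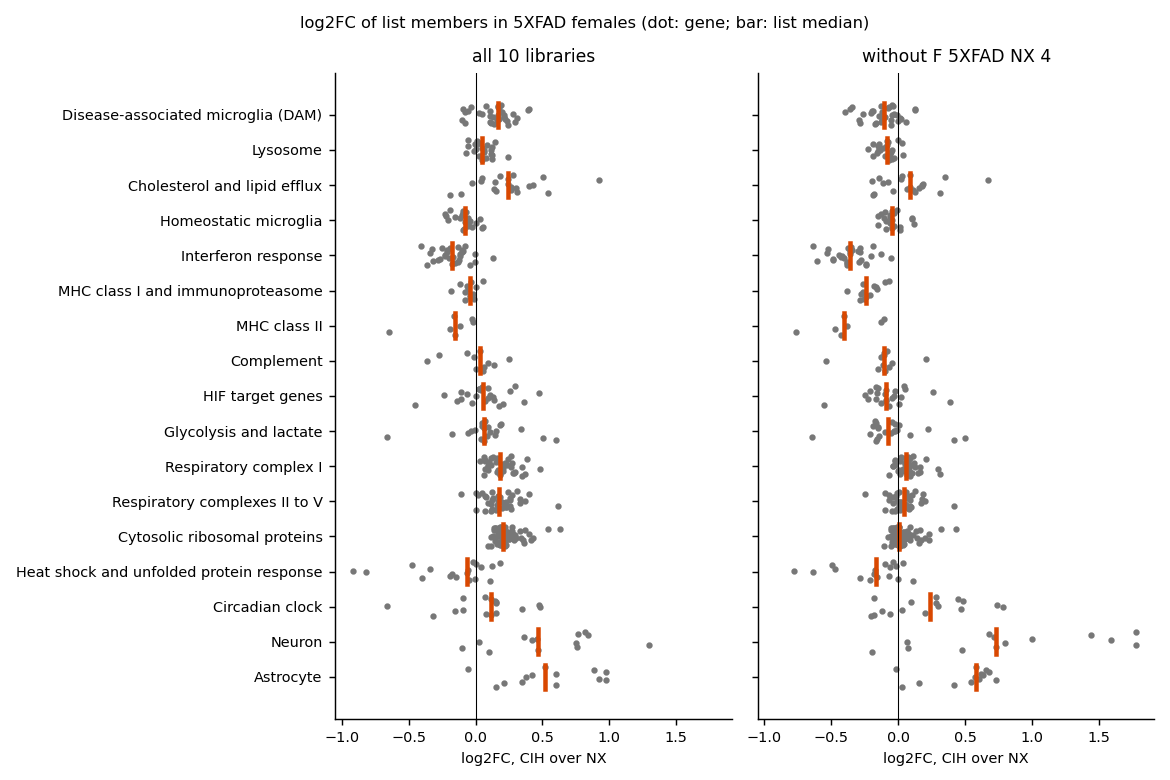
The log2FC of CIH over NX on the x axis for the members of 17 gene lists (dots) with the list median (bars), from all 10 libraries on the left and without F 5XFAD NX 4 on the right. The DAM median moved from 0.17 to −0.11, the ribosomal median from 0.20 to 0.01 and the interferon median from −0.17 to −0.36, while the astrocyte median was above 0 in both.

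The genes called by the less strict tests without F 5XFAD NX 4 were mostly of low level, apart from Rpl34-ps1, and several are known from neurons. Of the 8, 6 (Celsr3, Syt7, Unc79, Ptpn5, Cttnbp2 and LOC115487644) had passed the filter with no NX library above 1 CPM. The likelihood ratio test of edgeR called Celsr3, Syt7, Unc79, Ptpn5, Cttnbp2, LOC115487644 and Ly6g5b higher and Rpl34-ps1 lower, and DESeq2 called the first 4 and LOC115487644. Celsr3, a cadherin of axon guidance, was at 0.278, 0.203, 0.404, 6.57 and 0.626 CPM in NX and 1.90, 1.15, 2.04, 2.52 and 1.07 CPM in CIH (log2FC 2.22, adjusted p = 0.0017 by edgeR's likelihood ratio test and 0.0193 by DESeq2). These values rested on 3 to 10 counts in the 4 NX libraries and 16 to 38 in CIH. Syt7, a calcium sensor of vesicle release, was at 0.203 to 0.606 CPM in the 4 NX libraries and 0.466 to 1.94 CPM in CIH (log2FC 2.35), and Unc79, part of the sodium leak channel complex, at 0.563 to 0.809 and 1.07 to 3.84 CPM (log2FC 1.85). F 5XFAD NX 4 held more of each than any CIH library, with 3.31 CPM of Syt7 and 10.4 CPM of Unc79. The tyrosine phosphatase gene Ptpn5 behaved in the same way, with 0 to 6 counts in the 4 NX libraries, 7 to 41 in CIH and 54 in F 5XFAD NX 4. Over all 10 libraries the log2FC was −0.00 for Celsr3 and −0.24 for Unc79.

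LOC115487644 was the only gene of the 8 whose CIH libraries all lay above all 5 NX libraries. RefSeq lists it as a small nucleolar RNA of chromosome 1. It was at 0.724, 0.270, 0.202, 1.23 and 0.626 CPM in NX and 1.45, 1.73, 1.498, 1.52 and 1.60 CPM in CIH, which rested on 3 to 23 and 23 to 33 counts. The log2FC of this RNA was 1.77 (SE 0.35) over 9 libraries and 1.30 over 10, with adjusted p = 0.0017 by edgeR's likelihood ratio test and 0.0366 by DESeq2 on the 9 libraries. Rpl34-ps1, a pseudogene copy of the ribosomal protein gene Rpl34 whose reads cannot be surely told from those of its parent, was at 112, 79.7, 34.9, 31.9 and 74.0 CPM in NX and 26.0, 25.4, 38.1, 31.1 and 32.4 CPM in CIH. NX replicates 1, 2 and 5 were high, and replicates 3 and 4 lay within CIH. The log2FC was −1.26 (SE 0.25), with adjusted p = 0.0025 by edgeR's likelihood ratio test and 0.0775 by DESeq2. With F 5XFAD NX 3 left out as well, it passed the quasi-likelihood test of edgeR (adjusted p = 0.00773).

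Levels of neuronal markers are given because several of the called genes are known from neurons. The summed level of 20 neuronal markers was 467 to 596 CPM in the 4 NX libraries, 225 CPM in F 5XFAD NX 4 and 478 to 569 CPM in CIH, so the sum did not separate the groups, and no marker was at 0 in all libraries. Of the 20, 13 passed the filter without F 5XFAD NX 4, and 3 of the 13 (Rbfox3, Syn1 and Tubb3) passed with no NX library above 1 CPM. A gene that passes in this way had to be higher in CIH, so no count or median of the list is given. The mean log2 CPM of the list differed from the sum. It was 0.06 to 1.59 in the 4 NX libraries and 1.13 to 2.30 in CIH. F 5XFAD NX 4 was the highest NX library, at 1.91. This mean weighs weak markers as much as strong ones. It takes in Rbfox3, Syn1 and Tubb3, so part of that difference was fixed by the filter. Syn1, a synaptic vesicle protein, was at 0.390, 0.270, 0.741, 1.44 and 0.438 CPM in NX and 1.201, 1.52, 1.62, 1.13 and 0.600 CPM in CIH. The neuronal tubulin Tubb3 was at 0.390, 0.270, 0.472, 1.44 and 0 CPM in NX and 1.07, 1.36, 1.14, 0.728 and 0.466 CPM in CIH. As Syn1 and Tubb3 passed the filter with none of the 4 NX libraries above 1 CPM, their CIH values had to lie mostly above these 4. Those CIH values were within reach of F 5XFAD NX 4. Astrocyte markers had 12 of 13 higher (median 0.58, and 0.52 with all 10 libraries, none at an unadjusted p below 0.05 in either fit, and 0.36 to 0.78 with a further library left out of the 9), with sums of 272 to 410.1 CPM in the 4 NX libraries and 249 to 737 CPM in CIH. Neutrophil and monocyte markers went from 0 of 12 higher over all 10 libraries (median −0.73) to 11 of 12 without F 5XFAD NX 4 (median 0.47, and 0.17 with F 5XFAD NX 2 and 0.18 with F 5XFAD CIH 2 also left out), since that library held 295 CPM of them against 23.1 to 98.5 CPM in the other NX libraries and 41.8 to 113 CPM in CIH. The part of other cells in the calls was not tested.

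**Figure D5:**
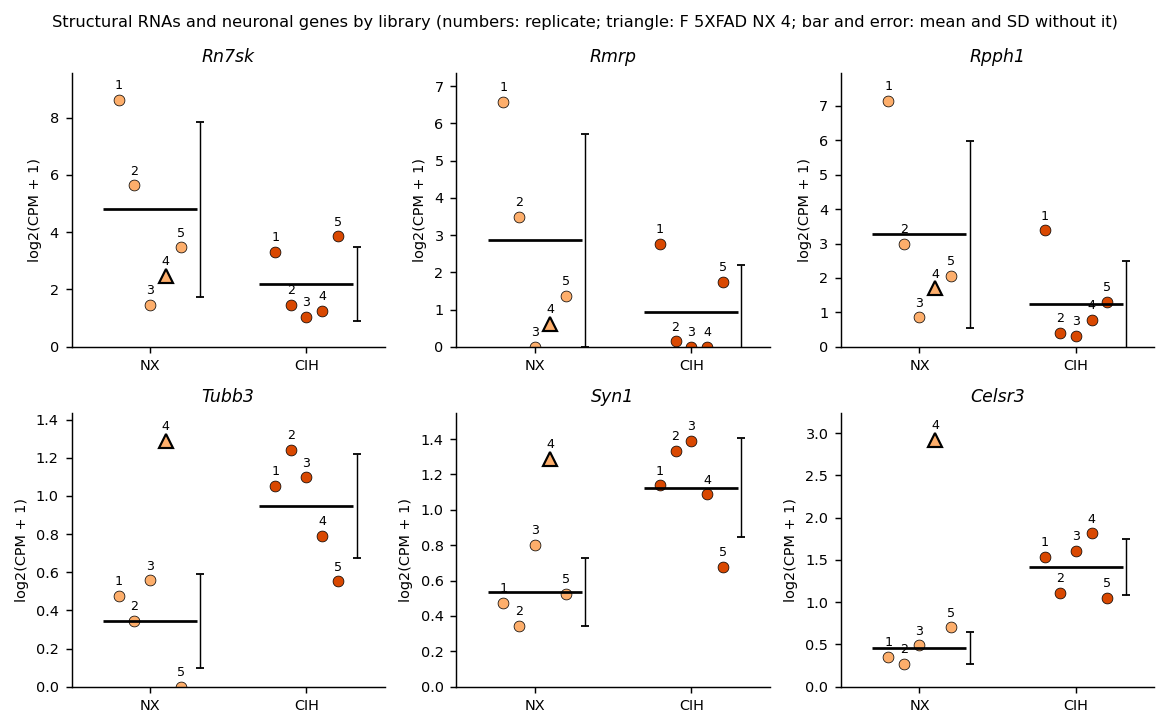
Levels of 3 structural RNAs and 3 neuronal genes as log2(CPM + 1) on the y axis in each 5XFAD female library, numbered by replicate, with the mean and SD of the groups without F 5XFAD NX 4 (triangle). The structural RNAs were highest in NX replicate 1, and Celsr3 and Tubb3 were highest in F 5XFAD NX 4.

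The list of non-coding structural RNAs had the most negative median log2FC of the 36 gene lists and a wide spread between libraries. It has 13 members, the protein-coding Lars2 among them, and only 4 passed the filter without F 5XFAD NX 4. The values of Rn7sk, Rmrp and Rpph1, which RNA polymerase III transcribes, follow. Rn7sk, which holds the elongation factor P-TEFb inactive, was at 392, 48.6, 1.75, 4.54 and 10.1 CPM in NX and 8.91, 1.73, 1.08, 1.39 and 13.5 CPM in CIH. Rmrp, the RNA of RNase MRP, was at 95.2, 10.2, 0, 0.534 and 1.56 CPM in NX and 5.81, 0.105, 0, 0 and 2.33 CPM in CIH. Rpph1, the RNA of RNase P, was at 139.8, 6.96, 0.809, 2.24 and 3.19 CPM in NX and 9.42, 0.315, 0.240, 0.728 and 1.47 CPM in CIH. All 3 had their peak in F 5XFAD NX 1, NX 2 came second for Rn7sk and Rmrp, and the remaining NX libraries overlapped CIH. The log2FC was −4.39 (SE 1.23), −4.0 (SE 1.40) and −3.92 (SE 1.33), with unadjusted p values of 0.00401, 0.0147 and 0.0123. The list median was −3.96, −3.64 with all 10 libraries, and −1.55 once F 5XFAD NX 1 was left out as well. These RNAs lack long poly(A) tails, so their counts in mRNA libraries depend on how each library was made, and that part was not tested.

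Of the single genes with the smallest p, several differed by little but separated the groups. Picking genes by p in these same libraries favours separated ones, so their separation is not a separate test. Over all 10 libraries CIH lay wholly above NX in 0.274% of all genes and wholly below in 0.316%. Without F 5XFAD NX 4 these shares were 0.941% and 1.90%. Psmd5, an assembly chaperone of the proteasome, was at 24.3, 26.9, 25.6, 24.4 and 25.5 CPM in NX and 21.5, 18.7, 21.2, 20.2 and 20.7 CPM in CIH, with no overlap in all 10 libraries. Its log2FC was −0.29 (SE 0.07, unadjusted p = 0.00238), and −0.31 over 10 libraries. Pts, an enzyme of tetrahydrobiopterin synthesis, was at 53.5, 53.8, 43.9, 48.4 and 58.4 CPM in NX and 69.0, 64.9, 66.7, 61.1 and 60.4 CPM in CIH, again with no overlap (log2FC 0.34, SE 0.08). Pdss1, which makes the side chain of coenzyme Q, had a log2FC of 0.58 (SE 0.14) and was separated in all 10 libraries. Without F 5XFAD NX 4, the phosphatidate phosphatase gene Lpin1 (−0.27, SE 0.07), the AMPK and mTORC1 regulator Fnip1 (−0.33, SE 0.08) and Crebrf (−0.29, SE 0.08) were lower in every CIH library than in any NX library. Tlr4, the lipopolysaccharide receptor, was at 145, 117, 146, 127 and 121 CPM in NX and 114, 116, 109, 110.0 and 117 CPM in CIH, with a log2FC of −0.19 (SE 0.08) and no overlap in 10 libraries by a narrow margin. The adjusted p from edgeR was 0.623 or more in all of them.

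The same exposure was compared in WT females of the same age to ask whether the differences were particular to 5XFAD. The test of the difference, (5XFAD CIH − NX) − (WT CIH − NX), called 0 of 15582 genes (0%) over 19 libraries and 0 of 15274 (0%) without F 5XFAD NX 4, with 265 genes higher (1.70%) and 324 lower (2.08%), and 454 higher (2.97%) and 279 lower (1.83%), at an unadjusted p below 0.05. In WT alone 0 of 14583 genes were called (0%), with 234 higher (1.60%) and 331 lower (2.27%) at that p. The Cirbp log2FC was −0.14 in WT, and its difference between genotypes was 0.79 without F 5XFAD NX 4 (unadjusted p = 0.00247, adjusted p = 0.962 from edgeR). Cirbp was picked by its p in these same 5XFAD libraries, so that unadjusted p is not a separate test. The interferon list had 15 of 30 members higher in WT CIH (median −0.02, with 48.3% of all genes higher) against 0 of 30 in 5XFAD without F 5XFAD NX 4. The library WT NX 1 stood apart in its group, with a mean log2 CPM of the DAM list of 8.34 against 6.68 to 7.12 in the other 3 WT NX libraries. Without it, 24 of the 30 interferon genes were higher in WT CIH (median 0.09, with 49.5% of all genes higher). The DAM genes Gpnmb and Spp1 had log2FC values of −7.26 and −5.91 in WT, and without WT NX 1 no tested DAM gene was below −0.71. Across 13714 genes, the log2FC in 5XFAD without F 5XFAD NX 4 and in WT had a Pearson r of 0.06 and a Spearman rho of 0.13. With F 5XFAD NX 4 included these were −0.15 and −0.17, and with WT NX 1 left out as well as F 5XFAD NX 4 they were 0.07 and 0.07, so the sign turned with 1 library. These values are a description over genes that share the library preparation and are not independent.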

How the data were processed

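RNA of CD11b+ cells was sequenced as bulk mRNA libraries (paired-end, Illumina). The authors aligned reads to GRCm38/mm10, for which the processing notes name HISAT2, and deposited gene counts as whole numbers without normalization. They also deposited FPKM values, which are these counts divided by gene length and library total and served only as an alternative. The counting tool and the annotation version are not given in the sources used here. Groups and replicate numbers came from the sample labels, and each library was treated as 1 mouse. Total counts set the precision, as a CPM of 1 rests on 14.7 to 21.2 reads in these libraries. No pair of libraries within a group was a duplicate (36 pairs).

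Quasi-likelihood F tests of edgeR 4.0.16 (R 4.3.3), with TMM factors and Benjamini-Hochberg adjustment, were run on the counts of the 2 groups alone, over genes with CPM > 1 in at least 3 libraries. Genes were called at FDR < 0.05 and an absolute log2FC above 1, the study's stated limits. The SE of a log2FC was derived from the test statistic. The test of the difference between genotypes used the 19 female libraries. Alternatives were the likelihood ratio test, DESeq2 1.42.0, limma 3.58.1 (voom with sample quality weights, and log2(FPKM + 1) or log2(FPKM + 0.1)), other scalings and filters, a replicate block, and libraries left out. The tests were tried on simulated data.

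The comparison, the gene lists and the rules were chosen with earlier results of these data known. Named genes were those called by any of the 3 tests with or without F 5XFAD NX 4, the 8 with the smallest p in each direction with a mean of at least 5 CPM, list examples and list members with an unadjusted p below 0.05, and Ptpn5 and Rn7sk. A list's level in a library is its mean log2 CPM (prior count 1), which, like the log2 CPM of single genes in the closing section, was scaled on the genes that passed the filter, whereas CPM values were scaled on all genes. On the log2 scale the first lay 0.14 above the second in F 5XFAD NX 4 and between −0.04 and 0.03 in the other 9 5XFAD female libraries. Promoter windows came from RefSeq for GRCm38.p6, matched by symbol. Some genes are not reported here.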

Additional observations from a re-analysis of the deposited data

Results flagged for a closer look

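In groups of 5 libraries, a library whose gap to its nearest neighbour exceeded Dixon's 95% limit was singled out, among 72 list levels and 88 gene levels, and chance singles out about 1 in 20 groups. F 5XFAD NX 4 accounted for 5 list levels and 13 gene levels of 26 in all. Its mean log2 CPM was 6.99 for the DAM list, 7.75 for lysosome, 5.63 for glycolysis, 4.89 for cholesterol and lipid efflux and 1.46 for erythroid markers, where the other NX libraries held 9.77 to 10.54, 8.81 to 9.13, 6.53 to 6.89, 5.93 to 6.25 and −0.50 to 0.01. Its log2 CPM, scaled on the genes that passed the filter, was low for Apoe (9.59), Cst7 (4.04), Itgax (5.82), Lpl (6.56), Gpnmb (0.30), Trem2 (9.93), B2m (10.39), Irf9 (6.21) and Sqle (2.60). It was high for Arntl (4.25), Celsr3 (2.87), Cttnbp2 (1.87) and Unc79 (3.53).

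F 5XFAD CIH 5 was high for MHC class II (8.17, the other CIH libraries 6.90 to 7.26), complement (9.01), Ciita (3.83) and Irf9 (6.74), and low for Syt7 (−0.95, the others 0.90 to 1.01). F 5XFAD CIH 2 was low for border macrophage markers (3.41) and Cst7 (10.38) and high for P2ry12 (10.91).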

How the results depend on the processing

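The count of called genes stayed at 0 in both directions under the quasi-likelihood test of edgeR with all libraries and with each single library left out (0 to 0), under other scalings and filters, FPKM with limma, voom with sample quality weights and all 4 groups in 1 fit. With F 5XFAD NX 4 left out, 9 libraries remained, on which edgeR's likelihood ratio test called 7 higher and 1 lower and DESeq2 5 higher and 0 lower, and with a second library left out the quasi-likelihood test called 0 higher and 0 to 1 lower. Scaling by library size alone on the 9 libraries gave 1042 genes higher and 90 lower at an unadjusted p below 0.05 against 613 and 443, with the median of all genes at 0.07 and the interferon median at −0.30. All alternatives that leave out 2 libraries, the WT fit without WT NX 1, and library size without F 5XFAD NX 4, were chosen after the data were seen. The median SE of a log2FC was 0.15 over 10 libraries and 0.11 over 9, which sets the smallest differences these libraries resolve.

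Deviations of same-numbered libraries had correlations from −0.09 to 0.31, within the range of differently numbered libraries (−0.49 to 0.43). The labels do not say that the numbers pair the mice, and they were not taken to do so. The replicate block gave 0 calls in both directions and 226 genes higher and 160 lower at an unadjusted p below 0.05, and it turned B2m (0.019), Celsr3 (1.18), Unc79 (0.83), Spp1 (0.58) and Gpnmb (0.45). The test of the difference between genotypes called 0 genes in every alternative, the block included.

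Signs that turned against all 10 libraries were mostly those that F 5XFAD NX 4 sets. With libraries left out singly or beside it, the log2FC ranged from −0.36 to 0.034 for B2m, −0.29 to 2.57 for Celsr3, −0.50 to 2.04 for Unc79, −0.37 to 0.31 for Apoe, −0.29 to 0.44 for Cst7, −0.42 to 0.32 for Itgax, −0.69 to 0.48 for Spp1, −0.025 to 0.56 for Lpl, −0.70 to 0.33 for Gpnmb, −0.13 to 0.28 for Trem2, −0.29 to 0.039 for P2ry12, −0.30 to 0.085 for Tmem119, −0.16 to 0.58 for Vegfa and −0.15 to 0.46 for Bnip3. On these 9 libraries edgeR's likelihood ratio test gave Celsr3 2.22, Unc79 1.85, Apoe −0.17, Cst7 −0.10, Itgax −0.20 and Trem2 −0.036, DESeq2 gave 2.24, 1.86, −0.18, −0.11, −0.20 and −0.040, and voom gave 2.18, 1.78, −0.29, −0.20, −0.32 and −0.089, with P2ry12 at 0.014, Tmem119 at 0.048, Vegfa at −0.027 and Bnip3 at −0.0053. Library size alone on those libraries gave Celsr3 2.28, Unc79 1.92, Apoe −0.10, Cst7 −0.029, Itgax −0.12, P2ry12 0.011 and Tmem119 0.049. Over all 10 libraries, voom gave Celsr3 2.06, Unc79 1.66, Apoe −0.16, Cst7 −0.042, Itgax −0.19, Trem2 −0.049 and Tmem119 0.019, with a weight of 0.12 on F 5XFAD NX 4. Celsr3, at −0.00 in the reported fit, was at 0.0038 by DESeq2, 0.0058 by the likelihood ratio test and 0.038 with no filter. Library size alone gave Spp1 0.058 and Gpnmb 0.0058. On log2(FPKM + 1) limma gave B2m 0.024, Celsr3 0.0041, Spp1 1.23 and Gpnmb 1.35, and on log2(FPKM + 0.1) B2m 0.024, Celsr3 0.38, Unc79 0.12, Spp1 1.26 and Gpnmb 1.62. Apart from F 5XFAD NX 4, the cause of these turns was not tested.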

Other observations

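Cells other than microglia and the dissociation response gave further values, with medians of the log2FC given first without F 5XFAD NX 4 and then with all 10 libraries. Of 20 immediate early and isolation-response genes, 8 were higher in CIH without that library (median −0.09) and 3 with it (median −0.14). Fos was at 214, 279, 378, 509 and 308 CPM in NX and 114, 343, 318, 213 and 257 CPM in CIH, lowest in CIH 1. Of 24 cell cycle genes 14 were higher (median 0.04), with 2 of the 24 higher at an unadjusted p below 0.05, where 4.34% of all genes were. Over 10 libraries 11 of the 24 were higher (median −0.05) and none had such a p. Of 12 chemokine genes 2 were higher (median −0.16) against 6 with all libraries (median −0.04), and none had an unadjusted p below 0.05 in either fit. Tnf, the inflammatory cytokine, spread from 18.8 to 110 CPM in the 4 NX libraries and from 19.7 to 84.8 CPM in CIH. Its log2FC was −0.14 (95% interval −1.25 to 0.98), and 0.01 with all libraries.

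Of 8 erythroid markers 4 passed the filter without F 5XFAD NX 4, and of 17 lymphocyte markers 6. In each list 1 gene (Hbb-bt and Nkg7) had passed with no NX library above 1 CPM, so no count or median is given for these lists. Oligodendrocyte markers had 8 of 10 higher (median 0.26) and 9 of 11 with all libraries (0.31), endothelial and mural markers 9 of 13 (0.22) and 10 of 13 (0.26), and choroid plexus and ependymal markers 5 of 5 in both (0.52 and 0.74). Border macrophage markers had 4 of 12 higher in both (−0.10 and −0.06). Of 7 replication-dependent histone genes, whose transcripts also lack poly(A) tails, 6 were lower in both (−0.80 and −0.56). Mitochondrially encoded genes had 8 of 12 higher without that library and 11 of 12 with it (0.06 and 0.15), and inflammasome, cytokine and Toll-like receptor genes 7 and 8 of 21 (−0.06 and −0.06). The median changed sign for proteasome genes (10 and 24 of 31 higher, −0.02 and 0.05), antioxidant genes (7 and 12 of 17, −0.07 and 0.05), oxygen-sensing genes (2 and 6 of 9, −0.09 and 0.02) and iron-handling genes (3 and 6 of 11, −0.07 and 0.03). NADPH oxidase genes had 0 and 2 of 6 higher (−0.05 and −0.01). Library size scaling without F 5XFAD NX 4 gave 24 of 31 proteasome genes, 11 of 12 mitochondrially encoded genes, 11 of 21 inflammasome, cytokine and Toll-like receptor genes, 4 of 6 NADPH oxidase genes, 17 of 24 cell cycle genes, 5 of 12 chemokine genes, 6 of 12 border macrophage markers and 5 of 11 iron-handling genes higher, where 69.9% of all genes were. With a further library left out of the 9, the sign of the median turned for the immediate early, cell cycle, mitochondrially encoded, proteasome, inflammasome and border macrophage lists.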
